A study of Mus musculus with 8 samples.

Results

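Mitochondrial complex I, the NADH dehydrogenase that feeds electrons into the respiratory chain, was followed through all genes whose symbol begins with Nduf, leaving out the 3 symbols that carry a -ps suffix. The rule found 48 of the 19558 genes in the table, read from 216 transcripts: 36 genes for subunits of the complex, 8 Ndufaf genes for its assembly factors, and 4 others. Of those 4, Ndufa4 and Ndufa4l2 bear the name without being subunits of complex I, and Ndufb4c and Ndufs6b stood in no list. Ndufb1, a further subunit, was not matched under that symbol, and the 3 symbols with a -ps suffix were not searched for it. After the filter on low counts 47 of the 48 were tested, and Ndufs6b, with at most 2 counts in any library, was not.

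The libraries were made from poly(A) RNA of the hippocampus of wild-type mice (strain given as C57BL/6 KP) at postnatal day 40. One group received KU55933, a blocker of the DNA damage kinase ATM, through the nose under anesthesia at 7.5 mg/kg, and the other the vehicle alone, 4% DMSO in saline. Each group held 4 libraries, described in the labels as 4 mice. The labels do not state the time from dosing to collection, and the extraction text speaks of hypothalamus and prefrontal cortex where every library is labelled hippocampus. All 6 listed markers of hippocampal neurons were present in every library, and 3 of them were lower in KU55933. Totals were 40586998 to 46630341 estimated counts in vehicle and 34190440 to 37499003 in KU55933. Together the 48 genes made up 0.266% ± 0.00940 (SD, n = 4) of all vehicle counts and 0.249% ± 0.0179 (SD, n = 4) of all KU55933 counts. In bulk tissue, fewer cells of a type and less RNA per cell cannot be told apart.

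Complex I is built from subunits of both genomes. In its peripheral arm the N module takes electrons from NADH onto a flavin, and a chain of iron-sulfur clusters carries them through the Q module to ubiquinone. The membrane arm, whose core is made from the mitochondrial DNA, pumps protons, and many nuclear accessory subunits hold the parts together. Assembly factors build or modify parts of the enzyme and are not found in the finished complex. Neurons depend heavily on this respiration, and mutations in these genes are a known cause of Leigh syndrome, an early-onset disorder of the brain.

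The change of these genes went with the base composition of their RNA, so stretches of 4 of them are shown. They are the beginnings of the coding sequences of Ndufa13 and Ndufs7, GC-rich subunit mRNAs that were lower in KU55933, of Ndufb6, which was lower at an intermediate GC content, and of Ndufs1, an AT-rich mRNA that was not. Capitals mark a G or C at the third base of a codon, a base that often leaves the amino acid unchanged. Each line holds the opening 90 coding bases, 5′ to 3′, of a GENCODE mouse transcript (GRCm38).
Ndufa13: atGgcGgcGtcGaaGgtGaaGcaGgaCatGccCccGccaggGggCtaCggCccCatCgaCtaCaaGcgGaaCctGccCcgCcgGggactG
Ndufs7: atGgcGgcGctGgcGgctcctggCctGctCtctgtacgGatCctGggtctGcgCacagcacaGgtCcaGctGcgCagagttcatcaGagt
Ndufb6: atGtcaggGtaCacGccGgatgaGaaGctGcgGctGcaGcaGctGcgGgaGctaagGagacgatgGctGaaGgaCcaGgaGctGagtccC
Ndufs1: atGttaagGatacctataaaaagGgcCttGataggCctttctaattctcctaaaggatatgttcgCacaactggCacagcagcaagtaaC
Of the 30 such positions shown, 28 were G or C in Ndufa13, 24 in Ndufb6, 19 in Ndufs7 and 9 in Ndufs1. Over the whole coding sequence the share was 85.5% in Ndufa13, the highest among the coding sequences read, 72.0% in Ndufs7, 58.1% in Ndufb6 and 39.1% in Ndufs1.

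Promoters are shown for Ndufs7 and Ndufaf8, the subunit and the assembly factor with the largest falls. They run from 250 bases before to 50 after the gene start in RefSeq (GRCm38.p6), with capitals at matches, on either strand, to CCGGAAG (letters bound by ETS factors such as GABP), GCGCATGCG (NRF1) or AAGATGGCG (YY1). These factors are known regulators of nuclear respiratory genes.
Ndufs7, chr10:80249199-80249498, plus strand: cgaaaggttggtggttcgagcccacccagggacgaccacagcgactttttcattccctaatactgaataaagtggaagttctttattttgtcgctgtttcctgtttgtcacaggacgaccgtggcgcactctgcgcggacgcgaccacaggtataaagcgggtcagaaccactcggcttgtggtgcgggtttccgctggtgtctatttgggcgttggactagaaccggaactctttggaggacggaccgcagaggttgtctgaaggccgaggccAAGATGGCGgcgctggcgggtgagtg
Ndufaf8, chr11:120098684-120098983, plus strand: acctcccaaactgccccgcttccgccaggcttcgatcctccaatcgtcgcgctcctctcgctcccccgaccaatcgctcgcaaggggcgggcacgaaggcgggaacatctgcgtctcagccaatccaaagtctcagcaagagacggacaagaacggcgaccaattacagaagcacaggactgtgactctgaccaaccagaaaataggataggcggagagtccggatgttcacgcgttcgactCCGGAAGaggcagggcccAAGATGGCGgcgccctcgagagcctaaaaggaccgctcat
Ndufs7 held the YY1 letters 24 bases after its start. Ndufaf8 held them 10 bases after its start and the ETS letters 8 bases before it. At least 1 of the 3 motifs was found in the promoters of 15 of the 39 subunit and Ndufaf genes that RefSeq matched (38.5%), against 11.4% of all 32851 promoters of the same length. Members were counted per gene, with a match in any of its promoters, and the background per promoter, so the units of these shares differ. The YY1 letters stood in 15.4% against 1.4%, the NRF1 letters, which read nearly the same on both strands and overlap themselves there, in 10.3% against 1.75%, and the ETS letters in 15.4% against 8.86%. The median GC content of these genes' promoters was 59.3%, against 52.7% over all promoters, and a match describes letters only.

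KU55933 hippocampus held less mRNA for 10 of the 36 nuclear complex I subunits and more for none at an adjusted p of 0.05, while 26 did not pass. The falls lay between 1.20-fold and 2.32-fold. Of all 15481 genes tested, 21.6% were called by the same edgeR quasi-likelihood test, 14.6% lower and 6.92% higher. The median log2 change of the 36 subunits was -0.20, against 0.01 over all genes. The 8 Ndufaf genes went both ways: Ndufaf3 and Ndufaf8 fell, Ndufaf4 rose, 5 did not pass, and their median was 0.05. In CPM, the count relative to the library's scaled total, all 4 KU55933 libraries lay below all 4 vehicle libraries for 14 subunits and above them for 1, against 15.9% and 10.7% of all genes.

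Set per kilobase of transcript and scaled to a common total, the subunits' levels in vehicle spread from 51.0 ± 2.75 (SD, n = 4) for Ndufb4 to 347 ± 11.6 for Ndufb9, with every other subunit between 118 and 309. All Ndufaf genes lay below the lowest subunit on this scale, from 8.93 ± 0.674 for Ndufaf6 to 49.2 ± 3.81 for Ndufaf7, although Ndufaf7 and Ndufb4 did not differ beyond their spread.

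**Figure D1:**
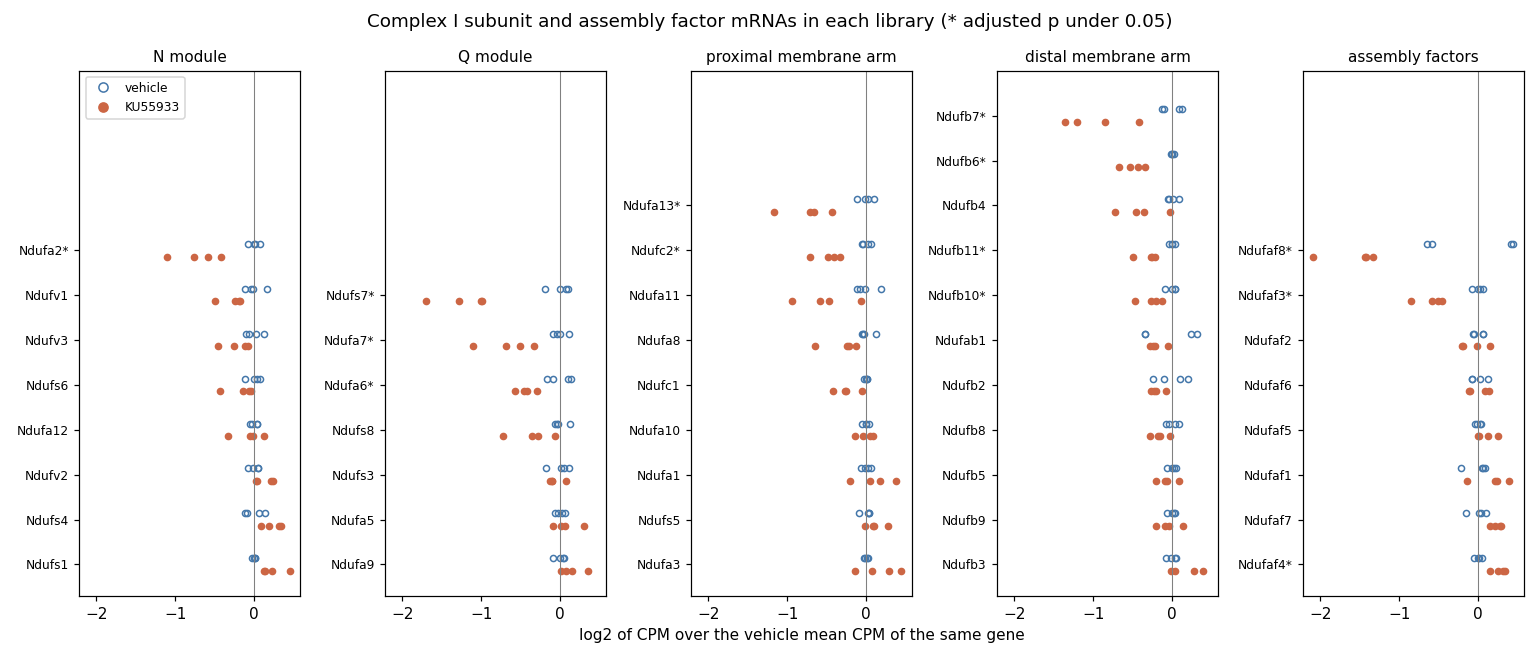
Each point is a library's log2 of CPM over the gene's mean vehicle CPM (x axis) for the subunits of each module, less 1 of the Q module, and the Ndufaf genes (rows), with open points for the 4 vehicle and filled points for the 4 KU55933 libraries; an asterisk marks an adjusted p under 0.05. The KU55933 points of Ndufs7, Ndufb7 and Ndufaf8 lie farthest to the left, and the vehicle points of Ndufaf8 fall into 2 pairs.

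The N module, where NADH is oxidised, had 1 called gene among 8. Ndufa2, an accessory subunit with a thioredoxin-like fold, held 42.2, 44.5, 42.5 and 40.3 CPM in vehicle libraries 1 to 4 and 25.0, 19.7, 28.3 and 31.7 CPM in KU55933 libraries 1 to 4. The groups did not overlap, and it fell 1.62-fold (log2 change -0.69 ± 0.13 SE, adjusted p = 0.00398). Ndufv1, the core subunit that binds NADH and the flavin, held 139, 157, 136 and 130 CPM in vehicle and 119, 100, 123 and 124 in KU55933. Those groups did not overlap either, but its log2 change of -0.27 ± 0.09 (SE) just missed the threshold (adjusted p = 0.0501).

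Ndufs1, the largest subunit and holder of several of the iron-sulfur clusters, held 130, 131, 127 and 130 CPM in vehicle and 176, 151, 142 and 141 in KU55933. It was the subunit whose KU55933 libraries all lay above vehicle, and its log2 change of 0.24 ± 0.08 (SE) did not pass (adjusted p = 0.0558). Ndufv2, which carries an iron-sulfur cluster next to Ndufv1, held 76.7, 84.3, 80.2 and 83.8 CPM in vehicle and 95.8, 82.9, 83.2 and 93.8 in KU55933, and these groups overlapped (log2 change 0.13 ± 0.07 SE, adjusted p = 0.225). The other 4 genes of the module, Ndufv3, Ndufs4, Ndufs6 and Ndufa12, had log2 changes from -0.22 to 0.24, none of them called.

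The Q module, where ubiquinone is reduced, had 3 called genes among 8, all lower, and held the largest fall of any subunit. Ndufs7 (ENSMUSG00000020153), the core subunit with the last iron-sulfur cluster before ubiquinone, held 48.0, 57.6, 58.7 and 54.6 CPM in vehicle and 22.6, 16.9, 27.4 and 27.5 in KU55933. The lowest vehicle library stood well above the highest KU55933 library, and the mean fell 2.32-fold, from 54.7 ± 4.81 to 23.6 ± 5.01 (SD, n = 4 each; log2 change -1.21 ± 0.14 SE, adjusted p = 0.000640). Ndufa7, an accessory subunit, held 42.3, 47.0, 43.3 and 40.8 CPM in vehicle and 27.0, 20.1, 30.4 and 34.3 in KU55933, a 1.55-fold fall without overlap (log2 change -0.63 ± 0.14 SE, adjusted p = 0.0114). Ndufa6, an accessory subunit of the LYR family, held 39.1, 41.1, 48.3 and 47.3 CPM in vehicle and 32.1, 29.6, 32.8 and 35.9 in KU55933. It fell 1.35-fold without overlap (log2 change -0.43 ± 0.09 SE, adjusted p = 0.00948). Without KU55933 libraries 1 and 2 together Ndufa6 did not pass (adjusted p = 0.0815), and without vehicle libraries 1 and 2 together Ndufa7 did not (adjusted p = 0.0624).

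Other core subunits of the Q module did not pass. Ndufs3, which enters early in assembly, held 66.0, 75.3, 77.1 and 81.1 CPM in vehicle and 79.0, 69.7, 68.7 and 69.7 in KU55933 (log2 change -0.06 ± 0.08 SE). The groups overlapped, with an adjusted p of 0.620 in the edgeR test. Ndufs8, which carries a pair of iron-sulfur clusters, held 49.9, 56.8, 51.4 and 50.5 CPM in vehicle and 40.6, 31.5, 42.9 and 49.9 in KU55933. KU55933 library 4 came up to the lowest vehicle library without crossing it, and the log2 change of -0.34 ± 0.12 (SE) did not pass (adjusted p = 0.0667). Of the 7 core subunits Ndufs7 was the 1 called gene, and their median log2 change was -0.06. The accessory subunits Ndufa5 and Ndufa9 had log2 changes of 0.08 and 0.15 and were not called.

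In the proximal membrane arm 2 of 9 genes fell. Ndufa13, an accessory subunit also known as GRIM-19, held 95.5, 103, 97.4 and 89.1 CPM in vehicle and 58.5, 42.7, 61.0 and 71.0 in KU55933, a 1.65-fold fall without overlap (log2 change -0.72 ± 0.13 SE, adjusted p = 0.00432). Ndufc2, a small accessory subunit, held 46.2, 49.8, 48.4 and 46.6 CPM in vehicle and 37.9, 29.2, 34.1 and 36.1 in KU55933, a 1.39-fold fall without overlap (log2 change -0.48 ± 0.09 SE, adjusted p = 0.00411). Ndufa11, an accessory membrane subunit, held 50.2, 60.8, 52.5 and 49.3 CPM in vehicle and 35.6, 27.8, 38.5 and 51.0 in KU55933. Its KU55933 library 4 lay inside the vehicle range and it did not pass (log2 change -0.48 ± 0.16 SE, adjusted p = 0.0559). The other 6 genes had log2 changes from -0.29 to 0.18, and the groups of Ndufa8 and Ndufc1 did not overlap although neither was called.

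The distal membrane arm had 4 called genes among 11, all lower, and 10 of the 11 had a log2 change below 0. Ndufb7, an accessory subunit, held 44.0, 52.7, 51.3 and 44.7 CPM in vehicle and 20.9, 18.9, 26.7 and 36.0 in KU55933. It fell 1.88-fold without overlap (log2 change -0.91 ± 0.18 SE, adjusted p = 0.00825), and KU55933 library 4 stood nearest to vehicle. Ndufb6, an accessory subunit with a membrane helix, held 38.0, 38.8, 38.0 and 37.6 CPM in vehicle and 30.1, 23.9, 26.4 and 28.3 in KU55933. It fell without overlap, from 38.1 ± 0.515 to 27.2 ± 2.63 (SD, n = 4 each; log2 change -0.49 ± 0.08 SE, adjusted p = 0.00270).

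Ndufb11, an X-linked accessory subunit, held 58.3, 58.2, 60.0 and 56.6 CPM in vehicle and 50.4, 41.3, 48.3 and 48.8 in KU55933 (log2 change -0.30 ± 0.08 SE, adjusted p = 0.0187). Ndufb10, an accessory subunit held by disulfide bonds, went from 75.7 ± 3.00 to 63.2 ± 6.38 CPM (SD, n = 4 each; log2 change -0.26 ± 0.08 SE, adjusted p = 0.0451). Neither overlapped between groups, but neither call was kept in every fit that leaves out a library. Ndufb11 did not pass without vehicle library 2 or 3 (log2 change -0.30 and -0.29, adjusted p up to 0.0650). Ndufb10 did not pass in 6 of the 8 fits, all except those without vehicle library 1 or KU55933 library 4. Its log2 change there was -0.28 to -0.20 (adjusted p up to 0.120). Of all genes 1621 were lower without vehicle library 2 and 1446 without vehicle library 3, against 2267 with every library. The other 7 genes had log2 changes from -0.37 to 0.18. Ndufab1, the mitochondrial acyl carrier protein that complex I also contains, held 41.0 and 41.0 CPM in vehicle libraries 1 and 2 and 61.1 and 64.2 in 3 and 4, against 42.6 to 49.9 in KU55933. Against vehicle 3 and 4 alone the log2 change was -0.46 for Ndufab1 and -0.34 for Ndufb2. Those 2 libraries were kept after the data were seen, and both genes were higher there than in vehicle 1 and 2. The split therefore cannot show a fall. Against all 4 vehicle libraries neither gene passed (adjusted p of 0.368 and 0.182).

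KU55933 library 2 was the lowest of the 8 across the subunits. The median over the 36 genes of a library's log2 level relative to vehicle was -0.37 there, against -0.09, -0.20 and -0.06 in KU55933 libraries 1, 3 and 4 and -0.04 to 0.04 in vehicle. The 6 choroid plexus markers summed to 1156 and 1235 CPM in KU55933 libraries 1 and 2, against 74.3 and 56.9 in libraries 3 and 4 and 50.6 to 111 in vehicle. Of the defining markers Ttr held 1042 and 1141 CPM in KU55933 libraries 1 and 2, and Kcne2 was at 0 in vehicle library 3. Of the 6 hippocampal neuron markers 3 were lower in KU55933 and none higher: C1ql2 2.96-fold (adjusted p = 0.000669), Wfs1 1.76-fold (adjusted p = 0.00160) and Bok 1.53-fold (adjusted p = 0.0187), each without overlap. Their 6 levels summed to 843 to 1044 CPM in KU55933 and 1021 to 1172 in vehicle. Of the 3 markers of neurons in general Rbfox3 was 1.81-fold lower (adjusted p = 0.000504) and Snap25 and Syt1 were not called, and the sums overlapped at 3464 to 4418 CPM in KU55933 and 3522 to 3801 in vehicle. Of the 3 subcortical neuron markers 2 were higher: Slc17a6 2.43-fold without overlap (adjusted p = 0.0112) and Tcf7l2 1.77-fold with overlap (adjusted p = 0.0279), while Prkcd, the most abundant, was not called. Those 3 summed to 43.7 to 71.9 CPM in KU55933 and 35.4 to 44.5 in vehicle. The astrocyte marker Gfap and the endothelial marker Cldn5 were lower as well, and the listed markers of oligodendrocytes, microglia and choroid plexus were not called. The oligodendrocyte markers summed to 6217, 2780, 4413 and 3155 CPM in vehicle libraries 1 to 4, a wide spread, and to 3193 to 4403 in KU55933. With an offset that takes each library's trend over GC content and transcript length out of the fit, Rbfox3 stayed lower (log2 change -0.42, adjusted p = 0.00692) and the other called markers did not pass. The part of these markers in the subunits' levels was not tested. Without KU55933 libraries 1 and 2 together 8 subunits were lower and 0 higher, and the median change was -0.16. Of all 15780 genes in that fit 985 were lower. It leaves out the libraries high in choroid plexus markers, while the subcortical sums were 43.7 and 71.9 CPM in KU55933 libraries 3 and 4. The fit therefore cannot show the part of the markers. Without vehicle libraries 1 and 2 together 9 subunits were lower and 0 higher, and 1689 of all 15721 genes were lower.

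Among the assembly factors Ndufaf8 and Ndufaf3 fell. Ndufaf8 (ENSMUSG00000078572), known in human cells to stabilise NDUFAF5, held 3.66, 3.51, 7.49 and 7.39 CPM in vehicle and 2.05, 1.30, 2.18 and 2.06 in KU55933. All KU55933 libraries lay below all vehicle libraries, and the fall of 2.91-fold was the largest of any Nduf gene (log2 change -1.54 ± 0.29 SE, adjusted p = 0.00602). Vehicle libraries 3 and 4 stood at about the same level, well above vehicle 1 and 2, so the size depends on which vehicle libraries are used. Without KU55933 libraries 1 and 2 together it did not pass (log2 change -1.37, adjusted p = 0.0805). Ndufaf3, which acts early in building the Q module, held 22.0, 24.2, 23.1 and 23.5 CPM in vehicle and 15.5, 12.9, 16.9 and 16.3 in KU55933, a 1.51-fold fall without overlap (log2 change -0.59 ± 0.10 SE, adjusted p = 0.00232).

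Ndufaf4, the binding partner of Ndufaf3, went the other way. It held 29.0, 29.1, 28.0 and 29.9 CPM in vehicle and 32.1, 34.7, 36.1 and 36.6 in KU55933, and rose 1.20-fold without overlap (log2 change 0.27 ± 0.07 SE, adjusted p = 0.0268). That call was lost in 5 of the 8 fits that leave out a library, those without vehicle 2, 3 or 4 or KU55933 2 or 3 (adjusted p up to 0.0890). Ndufaf7, a mitochondrial methyltransferase needed for complex I assembly, held 29.1, 29.6, 31.0 and 26.0 CPM in vehicle and 35.2, 33.4, 32.0 and 35.4 in KU55933, which did not overlap and did not pass (log2 change 0.23 ± 0.08 SE, adjusted p = 0.0562).

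The remaining 4 assembly factors overlapped between groups, with adjusted p from 0.278 to 0.971 in edgeR's test. Ndufaf1, which works on the membrane arm, held 16.7, 13.5, 16.5 and 16.2 CPM in vehicle and 20.7, 18.2, 14.3 and 18.5 in KU55933. Ndufaf5, an enzyme that hydroxylates NDUFS7 in human cells, held 20.6, 20.8, 20.2 and 19.8 CPM in vehicle and 24.3, 22.2, 20.4 and 20.5 in KU55933. Of this pair of partners, Ndufaf8 fell and Ndufaf5 was not called, and the difference between them was not tested. Ndufaf2, a relative of the subunit Ndufa12 that acts late in assembly, held 8.97, 8.90, 9.72 and 9.72 CPM in vehicle and 9.22, 8.14, 8.09 and 10.4 in KU55933. Ndufaf6 held 3.22, 3.21, 3.69 and 3.45 CPM in vehicle and 3.13, 3.75, 3.17 and 3.61 in KU55933.

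Both Nduf-named genes that are not complex I subunits are described apart. Ndufa4, which is a part of cytochrome c oxidase, held 151, 164, 144 and 147 CPM in vehicle and 201, 160, 164 and 190 in KU55933. The groups overlapped and the log2 change of 0.24 ± 0.09 (SE) did not pass (adjusted p = 0.0716). Ndufa4l2, its paralog known as a hypoxia-induced gene, held 1.80, 1.73, 2.33 and 1.93 CPM in vehicle and 0.907, 1.04, 1.22 and 1.33 in KU55933. It fell 1.73-fold at a low level (log2 change -0.79 ± 0.19 SE, adjusted p = 0.0178), a call lost without vehicle library 3 (adjusted p = 0.0647) and without KU55933 libraries 1 and 2 together (adjusted p = 0.131). Ndufb4c, which stands in no list, overlapped between groups (log2 change -0.19 ± 0.14 SE, adjusted p = 0.345).

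Across the members, the lower the GC content of the transcripts, the higher the change. Spearman's rho between log2 change and GC content was -0.69 over the 44 subunit and Ndufaf genes and -0.57 over the 36 subunits, against -0.71 over 15470 genes. Genes share libraries and are not independent, so these are descriptions. Below 45% GC, 0 of 5 members were lower and 1 was higher, and 0.206% of all such genes were lower. From 45% to 50%, 2 of 12 members were lower, against 0.828% of all genes. From 50% to 55%, 5 of 15 members were lower, against 6.53%. From 55% up, 5 of 12 were lower, against 51.1% of all genes there.

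The GC-rich end of the list holds Ndufs7 and Ndufa13, both with 60.4% GC, and Ndufb7 with 59.6%. The slope of log2 level on GC content, relative to the mean of the libraries, was 0.136 to 0.273 per 10 percentage points in vehicle and -0.348 to -0.117 in KU55933. KU55933 library 2, the lowest across the subunits, was the one at -0.348. The groups did not overlap in this slope, so the slope and the treatment cannot be told apart over all genes. Members can be compared with other genes of like GC content and length by giving each library its own smooth trend on both as an offset. With that offset 2.46% of all genes passed, 1.71% lower and 0.749% higher.

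**Figure D2:**
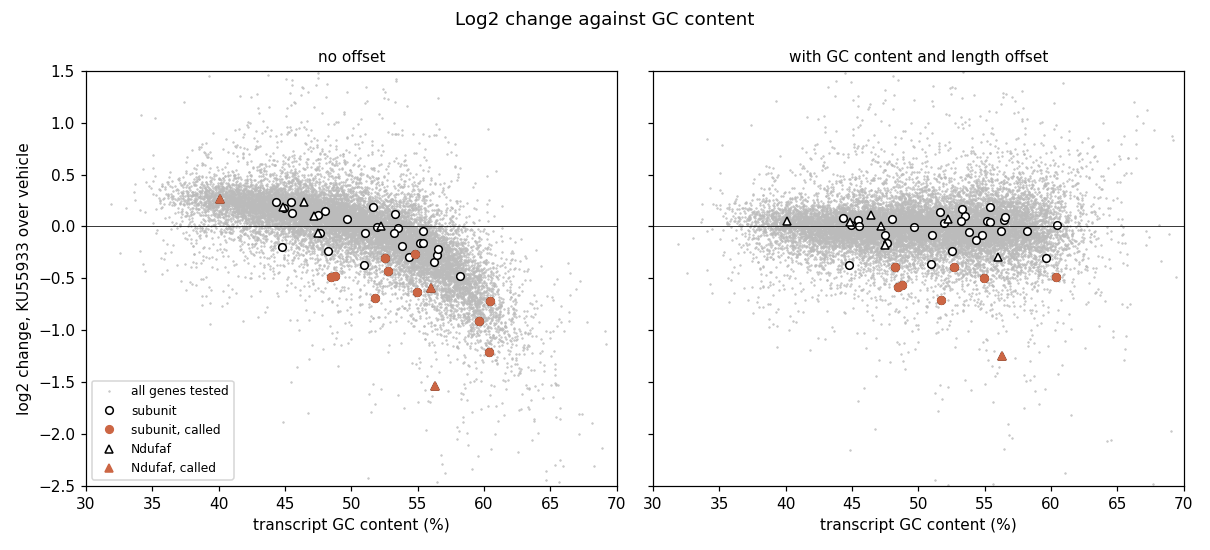
Log2 change of KU55933 over vehicle (y axis) against transcript GC content in percent (x axis), without (left) and with (right) the offset for GC content and length; grey points are all genes tested, circles subunits, triangles Ndufaf genes, and filled symbols those with an adjusted p under 0.05. Some grey points lie outside the axes. On the left, change falls with GC content for members and other genes alike, and on the right the filled symbols are 7 subunits and Ndufaf8.

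With the offset 7 subunits and Ndufaf8 were lower and no Nduf gene was higher. Of the 13 subunit and Ndufaf genes called without the offset and the 8 called with it, 7 were shared, all in the same direction. Ndufa2 (log2 change -0.71 ± 0.10 SE, adjusted p = 0.0101), Ndufb6 (-0.59 ± 0.06, adjusted p = 0.00207) and Ndufc2 (-0.56 ± 0.06, adjusted p = 0.00355) kept or exceeded their size, and all 3 stayed called in each of the 8 offset fits that leave out a library. These 3 genes have an intermediate GC content of 51.7%, 48.5% and 48.8%. Ndufc1, a small accessory subunit, was called with the offset (-0.39 ± 0.06, adjusted p = 0.0159; in 5 of the 8 fits that leave out a library) and not without it (-0.24 ± 0.09, adjusted p = 0.0701). Its CPM was 26.0, 26.7, 26.5 and 26.6 in vehicle and 25.6, 19.8, 22.1 and 22.1 in KU55933.

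Ndufs7 kept its call at a smaller size (-0.49 ± 0.08, adjusted p = 0.0175), as did Ndufa6 (-0.39 ± 0.07, adjusted p = 0.0217), Ndufa7 (-0.49 ± 0.10, adjusted p = 0.0354) and Ndufaf8 (-1.25 ± 0.27, adjusted p = 0.0455). Under the offset these 4 were called in 6, 4, 2 and 2 of the 8 fits that leave out a library. Where a call was lost, the log2 change was -0.50 and -0.43 for Ndufs7 and -0.36 to -0.39 for Ndufa6. It was -0.41 to -0.56 for Ndufa7 and -1.08 to -1.30 for Ndufaf8. The fall of Ndufa13 ended under the offset (0.02 ± 0.10, adjusted p = 0.946). Ndufb7 (-0.30 ± 0.12, adjusted p = 0.264), Ndufb10 (-0.08 ± 0.05, adjusted p = 0.449) and Ndufaf4 (0.05 ± 0.07, adjusted p = 0.758) were no longer called. Ndufb11 (-0.24 ± 0.06, adjusted p = 0.0614) and Ndufaf3 (-0.29 ± 0.07, adjusted p = 0.0561) missed narrowly, and Ndufa4l2 dropped to -0.19 ± 0.16 (adjusted p = 0.593). The median of the 36 subunits was -0.04 with the offset.

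**Figure D3:**
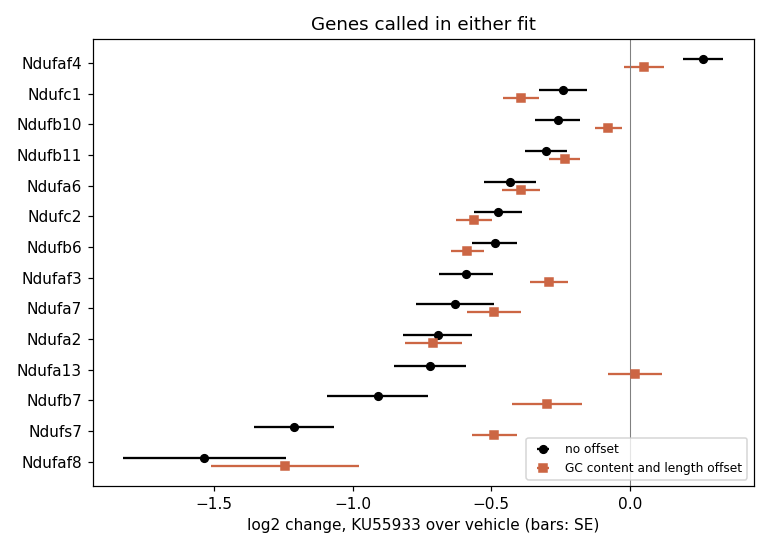
Log2 change with its standard error (x axis) for each subunit or Ndufaf gene called in either fit (rows), without the offset (circles) and with it (squares). Ndufa2 (-0.69 to -0.71) and Ndufa6 (-0.43 to -0.39) move little. Ndufb6 (-0.49 to -0.59) and Ndufc2 (-0.48 to -0.56) move farther from 0. Ndufa13 goes from -0.72 to 0.02 and Ndufs7 from -1.21 to -0.49.

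The count of 7 under the offset was reduced to 3 without vehicle library 3 or without KU55933 library 2, and was 4 without KU55933 library 3. Calls fell over all genes too: 65, 56 and 94 were lower in those fits, against 265 with every library. Length also matters to the reading of the count of 7. Of the 17 members with transcripts of 500 to 700 bases, 6 were lower under the offset, against 12.9% of all 326 genes of that length, a far larger share than the 1.71% over all lengths. Between 1000 and 2000 bases 0 of 10 members were lower, against 1.69% of all such genes. Whether short RNAs were recovered alike in both groups was not tested.

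The mRNAs that the mitochondrial genome gives complex I did not pass. The 7 mt-Nd genes, which encode the core of the membrane arm, had log2 changes of 0.13 (mt-Nd1), 0.19 (mt-Nd2), 0.18 (mt-Nd3), 0.18 (mt-Nd4), 0.27 (mt-Nd4l), 0.21 (mt-Nd5) and 0.16 (mt-Nd6), with adjusted p from 0.0872 to 0.638. The most abundant, mt-Nd4, held 5256 ± 363 CPM in vehicle and 5958 ± 498 in KU55933 (SD, n = 4 each). With the offset the 7 lay between -0.11 and 0.03. All 7 overlapped between groups.

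Of 10 further assembly factors outside the Nduf name, 2 were lower and 0 higher, against 14.6% and 6.92% of all genes. Dmac1, needed for the distal membrane arm, fell from 16.2 ± 0.774 to 11.6 ± 1.58 CPM (SD, n = 4 each; adjusted p = 0.0111) and stayed lower with the offset (log2 change -0.54 ± 0.09 SE, adjusted p = 0.0207). Ecsit, which works with Ndufaf1 on the membrane arm, fell 1.24-fold (adjusted p = 0.0319) and was not called with the offset (-0.07 ± 0.07 SE, adjusted p = 0.599).

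Of 10 regulators of nuclear mitochondrial genes, 3 were lower and 1 higher, against 14.6% and 6.92% of all genes. The 3 lower genes had 57.6% to 60.8% GC, and from 55% up 51.1% of all genes were lower. Polrmt, the mitochondrial RNA polymerase, fell 2.01-fold from 25.5 ± 0.634 to 12.6 ± 1.86 CPM (SD, n = 4 each; adjusted p = 0.000504), and was lower with the offset too (log2 change -0.38 ± 0.07 SE, adjusted p = 0.0319). Esrra, a nuclear receptor known to drive respiratory genes, fell 1.98-fold from 42.6 ± 2.93 to 21.5 ± 4.18 CPM (SD, n = 4 each; adjusted p = 0.000792) and was not called with the offset (adjusted p = 0.200). The others, named here after their values were seen, were the coactivator Ppargc1b, which was lower, and Gabpa, the DNA-binding subunit of GABP, which was higher (log2 change 0.32 ± 0.08 SE, adjusted p = 0.0235), and neither was called with the offset. Yy1 and Nrf1, whose motif letters were searched in the promoters, had log2 changes of 0.11 and -0.25 and were not called.

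Single transcripts of these genes moved against each other. Of the 176 transcripts tested, 17 were lower and 7 higher in edgeR's test, against 5.70% and 1.06% (6.76% together) of all 45343 transcripts. Without vehicle library 3 they were 3 and 3, and without single other libraries 7 to 14 and 3 to 6. Of the 17 that fell, 16 are annotated as protein coding and 1 as a retained intron, while the 7 that rose are 3 protein coding, 2 processed transcripts and 2 retained introns. The counts are Salmon's estimates of how reads divide among overlapping transcripts, the uncertainty of that division is not in the table, and no GC offset was fitted per transcript.

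Ndufb10 had the smallest p among transcripts. Its retained-intron transcript ENSMUST00000144285 held 3.09, 3.39, 2.75 and 2.95 CPM in vehicle and 9.66, 13.2, 7.90 and 13.3 in KU55933, and rose from 4.03% ± 0.396 to 17.6% ± 5.12 of the gene's counts (SD, n = 4 each; adjusted p = 0.00338). The coding transcript ENSMUST00000045602, the most abundant of the gene, held 66.1, 71.5, 70.8 and 69.1 CPM in vehicle and 54.9, 37.6, 51.7 and 51.6 in KU55933. It fell without overlap (adjusted p = 0.0366), which is a larger fall than that of the gene's total (log2 change -0.53 against -0.26). Ndufs7 also shifted among its transcripts. Its main coding transcript ENSMUST00000020361 held 41.4, 49.5, 51.2 and 47.6 CPM in vehicle and 15.4, 8.54, 20.6 and 13.2 in KU55933, a log2 change of -1.74 ± 0.25 (SE, adjusted p = 0.00666). The share of that transcript went from 86.7% ± 0.690 to 60.5% ± 13.4, and that of the processed transcript ENSMUST00000157063, named after its values were seen, from 1.45% ± 1.42 to 27.6% ± 11.2.

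Ndufa10, an accessory subunit of the membrane arm, shows a shift that its total hides. The gene stood at 122 ± 3.17 CPM in vehicle and 122 ± 8.60 in KU55933 (SD, n = 4 each; log2 change -0.01). Its coding transcript ENSMUST00000027478 held 70.3, 60.3, 91.5 and 92.1 CPM in vehicle and 36.9, 24.9, 42.2 and 31.8 in KU55933 and fell without overlap (log2 change -1.23 ± 0.19 SE, adjusted p = 0.00908). Its nonsense-mediated decay transcript ENSMUST00000189503, likewise named after its values were seen, went from 29.1% ± 10.6 to 57.4% ± 4.10 of the gene's counts without passing (adjusted p = 0.0694). With protein-coding transcripts alone summed, Ndufa10 was lower both without the offset (log2 change -1.21, adjusted p = 0.00183) and with it (-1.17, adjusted p = 0.00840).

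In Ndufaf1, Ndufaf3 and Ndufb5 coding transcripts changed. ENSMUST00000110802 of Ndufaf1 held 6.91, 7.10, 8.04 and 7.51 CPM in vehicle and 17.1, 14.2, 13.8 and 13.8 in KU55933 and rose from 47.3% ± 4.65 to 82.9% ± 9.76 of the gene (adjusted p = 0.00526), while the gene's total was not called. ENSMUST00000074208, the main transcript of Ndufaf3, held 19.0, 20.7, 20.4 and 20.9 CPM in vehicle and 12.2, 9.98, 12.2 and 11.7 in KU55933 and fell without overlap (log2 change -0.84 ± 0.11 SE, adjusted p = 0.00479). ENSMUST00000122290 of Ndufb5, an accessory subunit of the distal arm, held 11.4, 13.4, 8.36 and 9.67 CPM in vehicle and 28.4, 22.7, 20.0 and 23.7 in KU55933, a rise on the log2 scale of 1.11 ± 0.18 (SE, adjusted p = 0.0112). The most abundant transcript of Ndufb5, ENSMUST00000127477, held 42.7, 41.0, 46.3 and 42.0 CPM in vehicle and 41.7, 31.1, 37.7 and 36.5 in KU55933 and was not called (log2 change -0.26 ± 0.11 SE, adjusted p = 0.221).

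**Figure D4:**
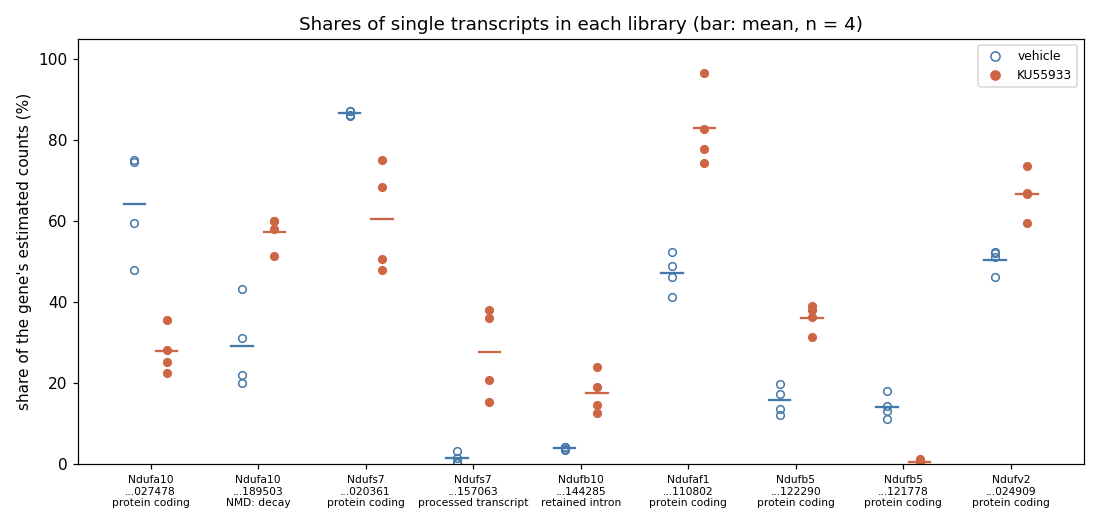
Share of the gene's estimated counts held by single transcripts, in percent (y axis), for 9 transcripts of 6 genes (x axis, last digits of the ID and annotated class); open points are the 4 vehicle and filled points the 4 KU55933 libraries, and bars their means. The groups are apart for all 9 transcripts shown, which were chosen for their small p or as the counterpart of such a transcript.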

How the data were processed

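The authors deposited a table of whole-number expected counts, estimated for each transcript with Salmon 1.4.0 on GRCm39, with FastQC 0.11.9 and DESeq2 1.32.0 also named, per the submitters' processing notes. Libraries were made with a stranded poly(A) kit, per the labels' protocols. No source used here states the rounding, Salmon's bias correction or any filter.

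Transcripts were summed per gene. The 12 rows without a gene name, 0.0381% of counts, could not be members but stayed in the library totals. After filterByExpr and TMM scaling, 15481 genes were compared by edgeR's two-sided quasi-likelihood test in edgeR 4.0.16 (R 4.3.3), adjusted over all of them after Benjamini and Hochberg, at a threshold of 0.05. CPM divides counts by the TMM-adjusted total. Nothing in the labels says that replicate numbers pair animals, and p-values measure the spread between these libraries. No library pair looked like a duplicate.

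GC content and length came from GENCODE mouse release 21 (GRCm38), matched by transcript ID for 99.7% of transcripts and all 48 members. For the offset a natural spline was fitted in every library to GC content (6 degrees of freedom) and log2 length (5). The files' build differs, so no gene coordinates are given except RefSeq's promoters. The tests were checked on simulated counts.

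Members and lists were chosen with earlier results of these data known. Values are given by library for core subunits, except 1 that is not reported here, Ndufaf genes, the 3 smallest p of each module, Ndufa4 and Ndufa4l2, and for the 6 transcripts of smallest p and the most abundant transcripts of their genes. Others are named where they are singled out. Alternatives were scaling by RLE or upper quartile, no filter, 1 CPM in 4 libraries, DESeq2 1.42.0, limma-voom (limma 3.58.1), non-robust dispersion, the replicate number as a block, the offset, protein-coding transcripts only, an adjusted p of 0.1, and libraries left out. Added after the data were seen were leaving out vehicle 1 and 2 together, combinations with the offset, and an offset centred on the mean gene.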

Additional observations from a re-analysis of the deposited data

Results flagged for a closer look

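In 5 of the 94 groups of 4 libraries tested by Dixon's criterion, 1 library stood far from the other 3, and chance flags about 1 in 20 groups. Ndufaf8 was at 1.30 CPM in KU55933 library 2, against 2.05 to 2.18 in the others. Ndufaf1 was at 13.5 CPM in vehicle library 2, against 16.2 to 16.7. Ndufa8 was at 77.6 CPM in vehicle library 2, against 68.9 to 69.8. Ndufs3 was at 79.0 CPM in KU55933 library 1, against 68.7 to 69.7. Ndufs5 was at 48.0 CPM in vehicle library 4, against 52.0 to 52.8.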

How the results depend on the processing

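Over 1502 pairs of a tested Nduf gene and an alternative, 1322 kept their side of the threshold, 115 lost a call and 56 gained one. Of the 1322, 152 changed sign, uncalled both ways, and 9 further pairs changed sign where either value was called: Ndufa13 under the offset (0.018), with it and protein-coding transcripts only (0.074), with it and the replicate block (0.023), and with it without vehicle 1 (0.067), vehicle 2 (0.077), KU55933 2 (0.075) or KU55933 3 (0.029), Ndufaf4 with the mean-centred offset (-0.000402), and Ndufb9 with the offset and protein-coding transcripts only (0.33, adjusted p = 0.0268). Without the offset and with single libraries left out, Ndufa13 stayed between -0.83 and -0.60. The cause was not tested.

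The 10 lower subunits became 16 with DESeq2, 16 at an adjusted p of 0.1 and 7 with the offset. They were 8 to 15 without single libraries and 3 to 8 with the offset and single libraries left out. With protein-coding transcripts only, Ndufa10, Ndufc1 and Ndufv1 were lower as well. With that sum and the offset, Ndufa10 and Ndufc1 were lower, while Ndufa13, Ndufb7, Ndufb10 and Ndufb11 were not called. The count of higher subunits, 0, became 1 with upper-quartile scaling, 2 with DESeq2, 1 with protein-coding transcripts only, 2 at an adjusted p of 0.1, 3 with that sum and the offset, and 0 to 1 without single libraries. The 1 higher Ndufaf gene became 2 with upper-quartile scaling, DESeq2 or an adjusted p of 0.1, 0 without vehicle 1 and 2 together, 0 in every fit with the offset, and 0 to 1 without single libraries. The 2 lower Ndufaf genes became 1 without KU55933 1 and 2 together and 1 with the offset, also with protein-coding transcripts only or the replicate block, and 0 to 1 with the offset and single libraries left out.

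The median log2 change of complex I subunit genes, -0.20, became -0.041 with the offset, -0.042 with the offset and replicate block, -0.090 with the mean-centred offset, 0.018 with the offset and protein-coding transcripts only, and -0.071 to 0.012 with the offset and single libraries left out (0.012 without KU55933 2), and -0.23 to -0.16 without single libraries and with no offset. The median log2 change of Ndufaf genes, 0.054, became -0.030 with the mean-centred offset, and with the offset -0.012 without vehicle 2, -0.018 without KU55933 1 and -0.016 without KU55933 2. Without single libraries and with no offset it was 0.034 to 0.088.

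Transcripts called higher, 7, were 3 to 6 without single libraries, and those called lower, 17, were 8 with RLE scaling and 3 to 14 without single libraries.

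Same-numbered libraries correlated at 0.294, 0.0840, 0.0393 and 0.202 in their deviations. Libraries of unlike number correlated at -0.221 to 0.115. Whether the numbers pair the samples was not tested. The replicate block gave 2 higher and 11 lower subunits and 1 higher and 2 lower Ndufaf genes, against 1720 higher and 2724 lower of all 15481 genes.

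Over all genes, 1823 were higher and 2586 lower with DESeq2, against 1071 and 2267. With the offset 116 and 265 were. Upper-quartile scaling gave 1414 and 2272, and protein-coding transcripts only 1471 and 2463, or 336 and 457 with the offset. Single libraries left out gave 151 to 1790 higher and 1446 to 2558 lower (151 and 1446 without vehicle 3). With the offset as well they gave 26 to 333 and 56 to 424. Depth limits Ndufs6b, which was too low to test.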
